A study of Mus musculus with 4 samples.

Results

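The RNA of 10 genes that supply mouse cells with amino acids was followed in J558 tumours of mice given TAK-931 or vehicle. The genes were grouped by their function and as genes under the transcription factor ATF4, with earlier results of these data known. They are Slc7a11, Slc7a5 and Slc3a2, whose products carry amino acids through the plasma membrane, Phgdh, Psat1 and Psph, which make serine, Shmt2 and Mthfd2, which move carbon units from serine in mitochondria, Asns, which makes asparagine, and Aldh18a1, which starts the synthesis of proline. All 10 were found among the 24421 genes of the count tables, and all 10 were among the 13669 genes with enough counts to be tested. In mm10 all 10 lie on the minus strand. Slc7a11 (50364936 to 50443613) and Phgdh (98313171 to 98339969) are on chromosome 3, Asns (7675171 to 7693182) and Mthfd2 (83305704 to 83317604) on chromosome 6, and Slc3a2 (8706882 to 8723369), Psat1 (15905123 to 15925059) and Aldh18a1 (40550257 to 40588463) on chromosome 19. Psph (129765558 to 129787253), Slc7a5 (121881146 to 121907686) and Shmt2 (127517123 to 127522444) are on chromosomes 5, 8 and 10.

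J558 is a plasmacytoma line of BALB/c mice, that is, a tumour of antibody-secreting plasma cells, which the labels list as B lymphocytes. The cells were grown under the skin of the right flank of female BALB/c mice, so that tumour and host share a strain. Mice of the Vehicle group received 0.5% methylcellulose by mouth, mice of the TAK-931 group received 60 mg/kg TAK-931 by mouth once a day, and tumours of both groups were taken on day 6. TAK-931 blocks CDC7, the kinase that fires origins of DNA replication. The libraries, 2 with vehicle (Vehicle-1 and Vehicle-2) and 2 with the inhibitor (TAK-931-1 and TAK-931-2), were made from RNA of whole tumours, which hold stroma, vessels and blood cells of the host as well as J558 cells. No age, litter or sequencing batch is given in the labels, and p-values measure the spread between these 4 tumours.

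Plasma cells secrete large amounts of protein and so draw heavily on free amino acids. Slc7a5 and Slc7a11 are light chains that each pair with the heavy chain Slc3a2: the first pair imports large neutral amino acids such as leucine, and the second (system xc-) imports cystine in exchange for glutamate. Phgdh, Psat1 and Psph act in this order on a product of glycolysis to give serine, and Shmt2 and Mthfd2 then turn serine into glycine and into carbon units on folate that are used for purines and other products. Aldh18a1 converts glutamate to the precursor of proline and ornithine. Many of these genes are known targets of ATF4, a transcription factor that is translated when the kinases of the integrated stress response (Eif2ak1 to Eif2ak4) phosphorylate eIF2α, for example when amino acids run short. ATF4 binds composite C/EBP-ATF elements whose core reads TGATGNAA, or TTNCATCA on the other strand.

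The core was searched in the promoter windows of RefSeq (GRCm38.p6, 250 bases before to 50 bases after the annotated start), and the stretches that hold it are printed here because they are the only places where these letters occur in the windows of the 10 genes. Windows were found for 9 of the 10 genes, all except Slc7a5. Of the 9, 2 held the core, against 4.51% of the 27025 genes with a window. Since the 10 genes were chosen as genes under ATF4, this share is not an independent result. The stretches run 5′ to 3′ on the strand of the gene, in lower case with each match in capitals.

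Slc7a11, chr3:50443642-50443690, minus strand: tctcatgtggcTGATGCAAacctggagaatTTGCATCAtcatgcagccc
Asns, chr6:7693214-7693243, minus strand: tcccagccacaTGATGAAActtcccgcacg

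In Slc7a11 the first match began 66 bases before the RefSeq start and read on the strand of the gene, and the second began 47 bases before it and read on the other strand. The matches did not overlap each other, and no GENCODE vM21 exon of Slc7a11 overlapped the stretch. In Asns the single match began 23 bases before the RefSeq start, in a stretch that overlapped 1 exon of GENCODE vM21, which places a start further upstream. The windows of Slc3a2, Phgdh, Psat1 (which has 2), Psph, Shmt2, Mthfd2 and Aldh18a1 held no match. This says only that these letters are not in the windows searched. A match is a description of the sequence, and binding was not measured.

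Total counts lay between 16487902 and 19589339 per library, and between 15216 and 16270 genes had a count. The Vehicle libraries were alike (Pearson r = 0.98 over log2 CPM of the 13669 genes), whereas TAK-931-1 stood apart: its r with TAK-931-2 was 0.87, while TAK-931-2 reached 0.95 with Vehicle-1. CPM are TMM-scaled counts relative to the library total. Markers of host cells were high in TAK-931-1. Summed over 12 macrophage markers, it held 9499 CPM, against 1693 CPM in TAK-931-2 and 545 to 646 CPM in the Vehicle libraries. Cdc7 itself, the gene of the inhibited kinase, lay between 21.2 and 23.0 CPM in all 4 libraries. The fold changes of the 10 genes and the medians of the gene lists are therefore also given without TAK-931-1.

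All 10 genes had lower CPM in both TAK-931 libraries than in both Vehicle libraries, where 32.7% of all genes tested did so. In what follows, a pair of values stands in the order of the library numbers, so that the first value with TAK-931 is that of TAK-931-1. Summed, they reached 5393 and 4949 CPM with vehicle against 1138 and 3150 CPM with TAK-931, so that the treated tumours held 22.0% and 60.9% of the Vehicle mean. The median log2 fold change of the 10 genes (TAK-931 minus Vehicle, edgeR) was -1.24, and that of all genes tested was 0.02. By edgeR's quasi-likelihood test with Benjamini-Hochberg adjustment over all genes, 0 of the 10 passed an adjusted p of 0.05, and their adjusted p lay between 0.275 and 0.364. No gene of the whole table passed either (0% called), while at an unadjusted p under 0.05 there were 2 of the 10, Slc7a11 and Slc3a2, against 6.55% of all genes on the lower side. DESeq2 called the same 2 genes lower at an adjusted p under 0.05, beside 1.18% of all genes with an adjusted p, and edgeR with a replicate block called 0 of the 10, beside 0.0219% of all genes. The differences are therefore given below as values that separate the groups without passing the main test. With 2 tumours a group, an exact permutation test of a single gene cannot go below p = 0.33. In whole tumours, fewer J558 cells and less of an RNA in each J558 cell cannot be told apart.

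**Figure D1:**
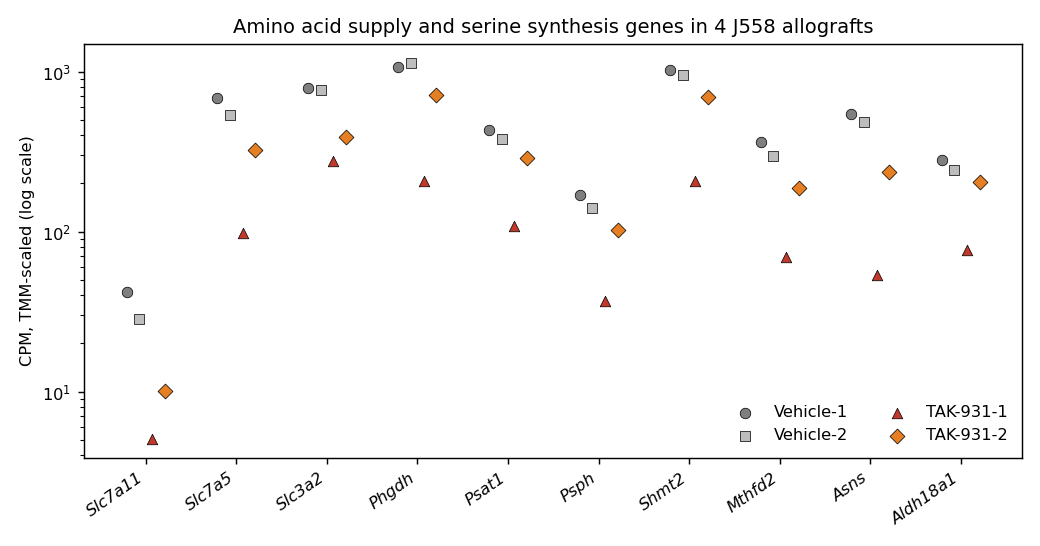
CPM (log scale) of the 10 genes in each of the 4 libraries, with 1 point per tumour. Every TAK-931 point lies under both Vehicle points of its gene, and TAK-931-1 is the lowest of the 4 in every gene, down to 5.06 CPM for Slc7a11.

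Among the transporters, the cystine carrier Slc7a11 was scarce and showed the largest fitted difference of the 10. It measured 41.6 and 28.3 CPM in Vehicle-1 and Vehicle-2, and only 5.06 CPM and 10.1 CPM in TAK-931-1 and TAK-931-2. The treated tumours held 14.5% and 28.9% of the Vehicle mean, a wider gap than the 1.47-fold difference between the Vehicle tumours. The fitted log2 fold change reached -2.21 ± 0.48 (SE; edgeR unadjusted p = 0.00856, adjusted p = 0.275, DESeq2 adjusted p = 0.00232). The leucine carrier Slc7a5 measured 688 and 534 CPM with vehicle against 98.3 and 321 CPM with TAK-931. The treated tumours thus stood at 16.1% and 52.6% of the Vehicle mean and differed from each other by 3.27-fold, more than the Vehicle tumours did. Its log2 fold change was -1.54 ± 0.63 (SE, edgeR adjusted p = 0.282). Slc3a2, the heavy chain that both carriers share, was the steadiest of the 10 across the treated tumours. It measured 787 and 763 CPM with vehicle against 276 and 391 CPM with TAK-931, or 35.6% and 50.5% of the Vehicle mean. Its log2 fold change of -1.22 ± 0.28 (SE) had the smallest error of the 10 (unadjusted p = 0.0101 and adjusted p = 0.275 by edgeR, adjusted p = 0.0132 by DESeq2).

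The enzymes of serine synthesis were abundant with vehicle, and all 3 were lower in the TAK-931 tumours, TAK-931-1 by far the lowest. Phgdh, which oxidises 3-phosphoglycerate in the first step, measured 1072 and 1134 CPM with vehicle against 206 and 714 CPM with TAK-931, with a log2 fold change of -1.26 ± 0.64 (SE, edgeR adjusted p = 0.326). Psat1, the transaminase of the next step, measured 431 and 376 CPM with vehicle against 108 and 289 CPM with TAK-931, with a log2 fold change of -1.02 ± 0.53 (SE, edgeR adjusted p = 0.331). Psph, the phosphatase that releases serine, measured 169 and 141 CPM with vehicle against 36.9 and 102 CPM with TAK-931, with a log2 fold change of -1.16 ± 0.54 (SE, edgeR adjusted p = 0.306). The 3 enzymes stood close together in each treated tumour, at 18.7% to 26.9% of the Vehicle mean in TAK-931-1 and at 64.7% to 71.6% in TAK-931-2.

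Shmt2 and Mthfd2, the mitochondrial enzymes that follow on serine, were lower to a similar extent. Shmt2, which splits serine into glycine and a folate-bound carbon unit, measured 1019 and 949 CPM with vehicle against 208 and 698 CPM with TAK-931. That is 21.1% and 70.9% of the Vehicle mean, and the log2 fold change was -1.12 ± 0.63 (SE, edgeR adjusted p = 0.353). An exon of it shares 68 bases with an exon of Ndufa4l2 on the opposite strand, and the strand setting of the counting is not given in the sources used here, so a small part of its counts is uncertain. Mthfd2, which oxidises the folate-bound unit and is low in most adult tissues, measured 363 and 296 CPM with vehicle against 69.1 and 188 CPM with TAK-931. It stood at 21.0% and 57.0% of the Vehicle mean, with a log2 fold change of -1.36 ± 0.54 (SE, edgeR adjusted p = 0.281).

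Asns, which makes asparagine from aspartate and glutamine, was the gene with the lowest share of its Vehicle level in TAK-931-1. It measured 545 and 486 CPM with vehicle against 53.6 and 235 CPM with TAK-931, or 10.4% and 45.6% of the Vehicle mean. The treated tumours differed from each other by 4.39-fold, the widest such gap of the 10 genes, and the log2 fold change of -1.84 had an SE of 0.75 (edgeR adjusted p = 0.282). Aldh18a1 showed the smallest difference. It measured 278 and 243 CPM with vehicle against 76.4 and 203 CPM with TAK-931, or 29.4% and 77.9% of the Vehicle mean, with a log2 fold change of -0.90 ± 0.52 (SE, edgeR adjusted p = 0.364).

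The treated tumours differed from each other in all 10 genes in the same order. TAK-931-1 was below TAK-931-2 for each gene, by 1.42-fold (Slc3a2) to 4.39-fold (Asns), where 49.6% of all genes tested were lower in TAK-931-1. The Vehicle tumours differed by at most 1.47-fold, and 9 of the 10 genes were higher in Vehicle-1. Without TAK-931-1, the log2 fold changes shrank but stayed below 0, from -0.36 for Aldh18a1 and -0.50 for Shmt2 to -1.14 for Asns and -1.80 for Slc7a11, with a median of -0.72. In that fit all 10 genes had an edgeR adjusted p under 0.05 (0.000201 to 0.0279), as did 16.1% of all genes on the lower side, and the lone TAK-931-2 was assumed to vary as little as the Vehicle tumours did. Without TAK-931-2, the median was -2.27, and again all 10 genes passed, beside 29.8% of all genes on the lower side.

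**Figure D2:**
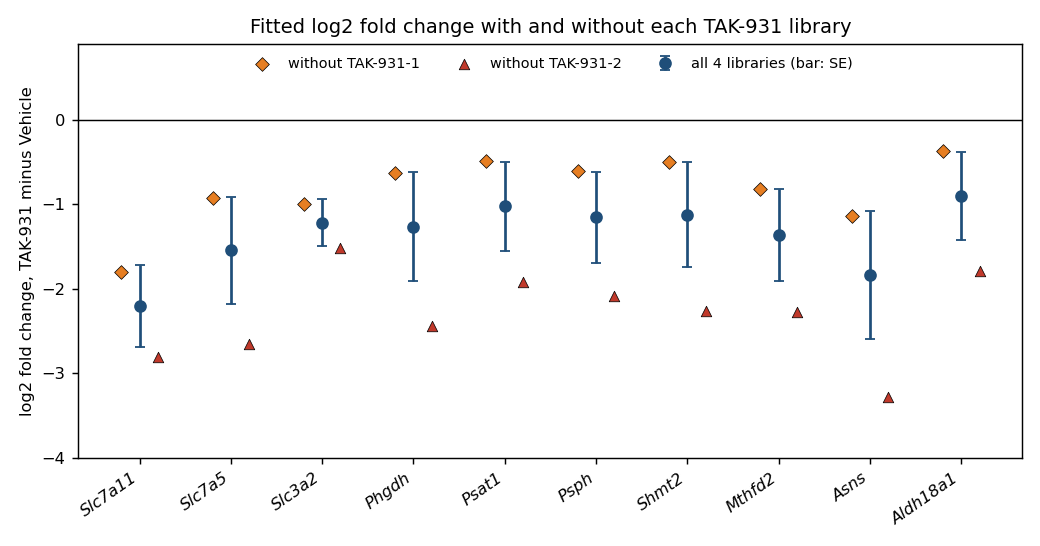
Fitted log2 fold change (TAK-931 minus Vehicle) of the 10 genes from all 4 libraries with its SE (circles), without TAK-931-1 (diamonds) and without TAK-931-2 (triangles). All points lie below 0, and the value without TAK-931-1 is the one nearest to 0 for each gene.

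Levels of different genes were compared per length, as RPKM (CPM per kilobase of exon). With vehicle, Phgdh was the most abundant of the 10 with a mean of 589.6 RPKM, higher than 99.0% of the genes tested, followed by Shmt2 with 427 RPKM. Asns (268 RPKM) and Slc3a2 (262 RPKM) came next and did not differ beyond their spread, and neither did Slc7a5 (174 RPKM), Psat1 (162 RPKM) and Mthfd2 (159 RPKM). Psph (101 RPKM), Aldh18a1 (73.8 RPKM) and Slc7a11 (3.79 RPKM) closed the order, each below the range of the one before. Slc7a11 therefore stood far under its partner Slc3a2, and Slc7a5 exceeded it by 43.4-fold in Vehicle-1 and 49.5-fold in Vehicle-2. In the TAK-931 tumours the ranges of neighbours overlapped throughout, except that Slc7a11 lay below all others. Asns had rank 3 by the Vehicle mean and rank 5 by the TAK-931 mean, with rank 7 in TAK-931-1, but it had rank 4 in both Vehicle-2 and TAK-931-2.

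Ratios within a tumour were taken for chosen pairs of the 10 genes. How often other pairs of genes separate the groups was not computed. With 2 tumours a group, a separation alone cannot give an exact permutation p below 0.33. Asns per length stood at 0.493 and 0.416 of Phgdh in the Vehicle tumours, at 0.253 in TAK-931-1 and at 0.320 in TAK-931-2, so that the groups did not overlap. Against Shmt2 it stood at 0.640 and 0.613 with vehicle, and at 0.309 and 0.403 with TAK-931. Psat1 over Psph differed less, at 1.57 and 1.65 with vehicle and 1.81 and 1.75 with TAK-931, but did not overlap either. Phgdh over Psat1 was 3.31 and 4.02 with vehicle and 2.53 and 3.29 with TAK-931, so that the groups only just separated. Slc7a11 over Slc3a2 was 0.0169 and 0.0119 with vehicle and 0.00588 and 0.00828 with TAK-931, also without overlap. Slc7a5 over Slc7a11 was 43.4 and 49.5 with vehicle and 51 and 83.6 with TAK-931, without overlap. Shmt2 over Mthfd2 overlapped between the groups. Slc7a5 over its heavy chain Slc3a2 was 0.736 and 0.589 with vehicle, but 0.300 and 0.692 with TAK-931. That ratio was low in TAK-931-1 alone.

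**Figure D3:**
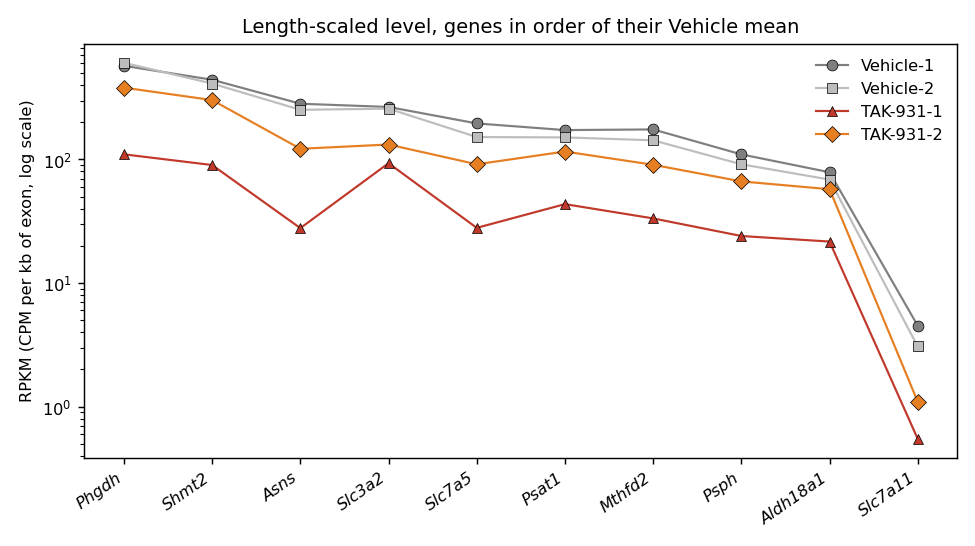
RPKM (CPM per kilobase of exon, log scale) of the 10 genes in each library, ordered from left to right by the Vehicle mean. The lines of the Vehicle libraries nearly coincide, and Asns lies far below Slc3a2 in TAK-931-1, at 27.8 RPKM against 93.3 RPKM.

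The levels were also set against genes that mark J558 cells, since host markers differed between the tumours. Trap1a, the gene of the P1A tumour antigen that is silent in most normal tissues, measured 1127 and 1095 CPM with vehicle against 356 and 1235 CPM with TAK-931. Jchain, the joining chain of secreted antibodies, measured 5080 and 5657 CPM with vehicle against 3136 and 8124 CPM with TAK-931. Neither marker separated the groups, and both were lowest in TAK-931-1. Relative to Trap1a, the median of the 10 genes was 65.9% of the Vehicle mean in TAK-931-1 and 54.8% in TAK-931-2. The treated tumours lay closer together than by CPM for Phgdh (58.3% and 58.2%), Shmt2 (66.1% and 63.8%), Slc7a5 (50.4% and 47.4%) and Asns (32.5% and 41.1%). The order of the treated tumours turned round, with 9 of the 10 genes higher in TAK-931-1 and Asns the exception. On this scale 9 of the 10 genes were below both Vehicle tumours in both treated tumours, as were 4.1% of all genes tested. The exception in that count was Slc3a2, which stood at 111% of the Vehicle mean in TAK-931-1 and at 45.4% in TAK-931-2. Relative to Jchain, all 10 genes were lower in both treated tumours (all genes: 19.6%), with medians of 35.8% and 40.0% of the Vehicle mean, and Slc7a11 (24.4% and 18.8%) and Asns (17.7% and 30.0%) were the lowest.

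**Figure D4:**
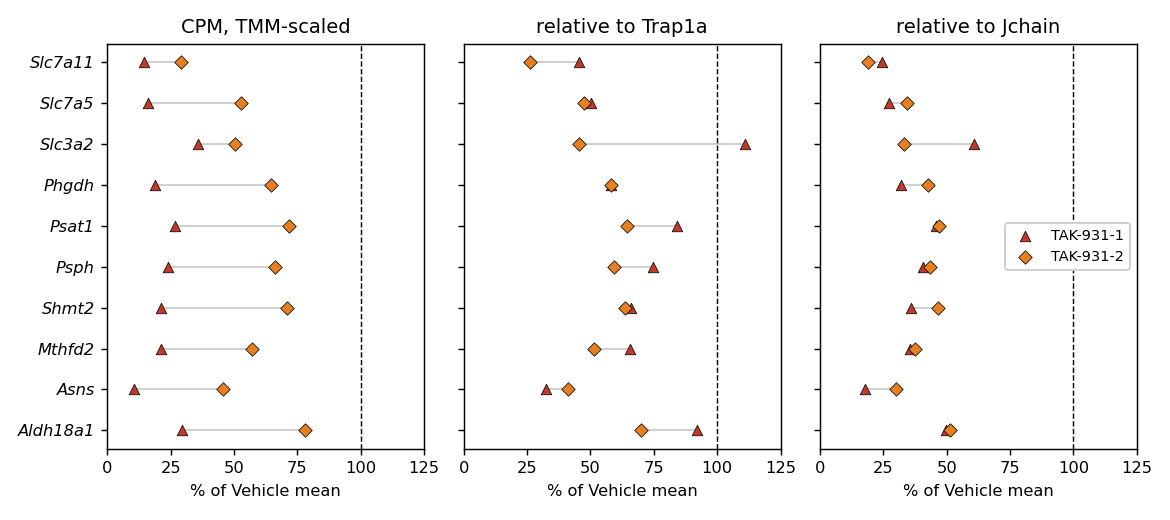
Level of each gene in TAK-931-1 (triangles) and TAK-931-2 (diamonds) as percent of the Vehicle mean (dashed line), for CPM and relative to Trap1a or Jchain. The points of most genes lie closer together relative to either marker than for CPM, but those of Slc3a2 lie further apart relative to both markers (111% and 45.4% for Trap1a, 60.7% and 33.2% for Jchain).

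Scaling whole libraries by these markers moved the median of all genes, from a log2 fold change of 0.02 to 1.00 with Trap1a, to 0.24 with Jchain and to 0.62 with 13 J558 and plasma cell markers together. The 10 genes kept a median below 0 in each, at -0.70, -1.35 and -0.96. They stood below the median of all genes by 1.70, 1.59 and 1.58 on these scales, and by 1.26 with TMM. A scale factor shifts every gene of a library alike, so no scaling could remove this distance within a library. Its size therefore says nothing on the J558 content of the tumours. With Trap1a scaling, however, 0 of the 10 genes had an edgeR unadjusted p under 0.05 (all genes: 0.0366% on the lower side). The SE of their log2 fold changes lay between 0.985 and 1.24. At the same limit, 6 of the 10 were lower with Jchain scaling (all genes: 0.571%) and 3 with the 13 markers (all genes: 0.19%). At an edgeR adjusted p of 0.05, 0 of the 10 passed under each of these scalings.

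Atf4 itself and its known targets Trib3 and Chac1 were also lower. Atf4 measured 644 and 593 CPM with vehicle against 194 and 314 CPM with TAK-931 (log2 fold change -1.29 ± 0.33 SE, edgeR unadjusted p = 0.0150). Trib3, a pseudokinase that restrains ATF4, measured 74.1 and 51.4 CPM with vehicle against 2.53 and 4.90 CPM with TAK-931. Chac1, which degrades glutathione, measured 220 and 165 CPM with vehicle against 7.06 and 22.6 CPM with TAK-931. The groups were separate for all 3 genes, and Trib3 (log2 fold change -4.08 ± 0.47 SE) and Chac1 (-3.70 ± 0.67 SE) exceeded every one of the 10 genes in size. DESeq2 gave them adjusted p of 4.5e-11 and 1.69e-06, while the adjusted p of the main edgeR fit was 0.275 for Atf4, Trib3 and Chac1 alike.

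The list of ATF4 and the integrated stress response as a whole went both ways. Of its 24 genes, 10 were lower and 3 higher in both TAK-931 tumours (all genes: 32.7% and 30%), 7 were lower and 2 higher at an unadjusted p under 0.05 (all genes: 6.55% lower, 11.6% higher), and the median log2 fold change was -0.07 with TMM, -0.49 without TAK-931-1 and above 0 under each marker scaling. Ddit3 (CHOP), a pro-apoptotic factor downstream of ATF4, overlapped between the groups with 13.8 and 13.6 CPM with vehicle against 20.8 and 7.001 CPM with TAK-931. Eif2ak3 (PERK, the kinase of the endoplasmic reticulum) and Eif2ak4 (GCN2, which senses uncharged tRNA) overlapped as well, with log2 fold changes of 0.33 ± 0.32 and -0.16 ± 0.31 (SE). Eif2ak2 (PKR, which binds double-stranded RNA) was higher, at 21.6 and 18.5 CPM with vehicle against 60.2 and 38.7 CPM with TAK-931 (log2 fold change 1.30 ± 0.32 SE, edgeR adjusted p = 0.275). Atf3, another ATF4 target, chosen here after its values were seen, was higher too, at 5.46 and 3.90 CPM with vehicle against 46.4 and 14.2 CPM with TAK-931 (log2 fold change 2.69 ± 0.70 SE, edgeR adjusted p = 0.275, DESeq2 adjusted p = 0.0024). The core was present in the promoter windows of 6 of the 21 genes of this list that have one (all genes: 4.51%). Of these, Trib3, Chac1 and Fgf21 were lower and Atf3 higher in both TAK-931 tumours, while Nupr1 and Vldlr overlapped between the groups.

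Among enzymes adjacent to the 10 genes, those of one-carbon metabolism were lower on the whole. Of 21 such genes, 13 were lower and 3 higher in both TAK-931 tumours (all genes: 32.7% and 30%), and 5 were lower and 1 higher at an unadjusted p under 0.05 (all genes: 6.55% and 11.6%). The median log2 fold change was -0.74, or -0.49 without TAK-931-1, turning to 0.04 when libraries were scaled by Trap1a. Shmt1, the cytosolic counterpart of Shmt2, measured 93.5 and 102 CPM with vehicle against 32.2 and 57.1 CPM with TAK-931 (-1.13 ± 0.35 SE). Mthfd1l, which releases formate from mitochondria, had a log2 fold change of -0.94 ± 0.35 (SE), and Fpgs, which adds glutamates to folate, one of -1.24 ± 0.36 (SE). Gldc of the glycine cleavage system was near the floor, at 0.356 and 0.360 CPM with vehicle against 5.69 and 0.875 CPM with TAK-931.

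Of 14 enzymes of proline, glutamate and aspartate metabolism, 10 were lower and 0 higher in both TAK-931 tumours (all genes: 32.7% and 30%), and 5 were lower at an unadjusted p under 0.05 (all genes: 6.55%). The median log2 fold change was -0.61, or -0.33 without TAK-931-1, and was again above 0 (0.19) when scaled by Trap1a. Pycr1, which completes proline synthesis in mitochondria, measured 58.5 and 54.1 CPM with vehicle against 9.80 and 40.4 CPM with TAK-931 (-1.16 ± 0.71 SE). Aldh4a1, which acts in proline breakdown, had a log2 fold change of -1.60 ± 0.39 (SE). Glul, which makes glutamine, was high in TAK-931-1 alone, with 288 CPM against 28.8 to 34.5 CPM in the other libraries.

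The aminoacyl-tRNA synthetases, which load amino acids onto tRNA and several of which are known ATF4 targets, had, among the lists of metabolic and stress genes, the median nearest to that of the 10 genes. In both TAK-931 tumours 19 of the 20 cytosolic synthetase genes were lower and 0 higher (all genes: 32.7% and 30%), and 4 were lower at an unadjusted p under 0.05 (all genes: 6.55%). Their median log2 fold change was -1.02, or -0.54 without TAK-931-1. It stayed below 0 under each marker scaling. As ratios of single libraries to the Vehicle mean, the medians were -1.73 in TAK-931-1 and -0.53 in TAK-931-2. The same medians of the 10 genes were -2.24 and -0.72. Dars, for aspartate, had a log2 fold change of -1.32 ± 0.38 (SE), whereas Qars, for glutamine, was the exception with 153 to 156 CPM with vehicle against 150 and 182 CPM with TAK-931. The core was present in 5 of the 12 synthetase genes that have a promoter window under the same symbol (all genes: 4.51%). In the other lists it was present in 2 of 9 proline, glutamate and aspartate enzymes, 2 of 17 transporters, 1 of 20 genes of the unfolded protein response and 0 of 16 one-carbon, 0 of 8 glutathione, 0 of 8 breakdown and 0 of 16 cell cycle genes with a window.

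The other amino acid transporters were also mixed. Of 19 tested, 8 were lower and 8 higher in both TAK-931 tumours (all genes: 32.7% and 30%), and 3 were lower and 4 higher at an unadjusted p under 0.05 (all genes: 6.55% and 11.6%). The median log2 fold change was 0.28, or -0.07 without TAK-931-1. Slc1a5, which imports glutamine, measured 240 and 215 CPM with vehicle against 93.5 and 132 CPM with TAK-931 (-1.01 ± 0.28 SE). Slc38a2, another importer of neutral amino acids and an ATF4 target, measured 436 and 395 CPM with vehicle against 153 and 275 CPM with TAK-931 (-0.96 ± 0.37 SE). The light chains of Slc3a2 among them that were to be named in any case were lower too, Slc7a6 by a log2 fold change of -0.90 ± 0.35, Slc7a7 of -0.79 ± 0.34 and Slc7a8 of -0.86 ± 0.23 (SE). On the higher side, Slc36a1, a lysosomal and plasma membrane carrier of small amino acids, measured 17.9 and 19.8 CPM with vehicle against 99.1 and 50.9 CPM with TAK-931 (1.99 ± 0.40 SE).

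Of 12 genes of glutathione synthesis, transsulfuration and the response to oxidants, 6 were lower and 2 higher in both TAK-931 tumours (all genes: 32.7% and 30%), and 3 were lower at an unadjusted p under 0.05 (all genes: 6.55%). The median log2 fold change was -0.63, or -0.43 without TAK-931-1, turning above 0 when scaled by the J558 and plasma cell markers (0.03) or by Trap1a (0.45). Cth, which makes cysteine from cystathionine, measured 161 and 139 CPM with vehicle against 13.7 and 68.4 CPM with TAK-931 (-1.87 ± 0.80 SE). Gclm, the modifier subunit of the first enzyme of glutathione synthesis, was alike in the treated tumours, at 27.0 and 27.5 CPM against 49.5 and 44.5 CPM with vehicle (-0.79 ± 0.22 SE). Nfe2l2 (NRF2), which induces Slc7a11 and glutathione genes under oxidative stress, had a log2 fold change of 0.83 ± 0.36 (SE). Of 10 tested genes of amino acid breakdown, 2 were lower and 4 higher in both TAK-931 tumours (all genes: 32.7% and 30%), with a median log2 fold change of 0.36, or 0.71 without TAK-931-1. Named by the lowest p in each direction were Bcat1 (branched-chain transaminase) with -1.28 ± 0.54 and Nos2 (nitric oxide synthase, which uses arginine) with 2.89 ± 0.79 (log2 fold change, SE).

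Genes of the unfolded protein response and the cell cycle were counted as well. Of 24 genes of the unfolded protein response, which plasma cells use constantly, 11 were lower and 2 higher in both TAK-931 tumours (all genes: 32.7% and 30%), with a median log2 fold change of -0.30, or 0.08 without TAK-931-1, and above 0 when scaled by the J558 markers or Trap1a. Creld2 was the most clearly lower (-1.06 ± 0.38 SE) and Dnajc3 the most clearly higher (0.58 ± 0.32 SE). Of 20 cell cycle genes, 14 were lower and 0 higher in both TAK-931 tumours (all genes: 32.7% and 30%), with a median of -0.44, or -0.18 without TAK-931-1, which was above 0 when scaled by the J558 markers (0.02) or Trap1a (0.37). Pcna, the clamp of replicating polymerases, had a log2 fold change of -0.74 ± 0.23 (SE), and Mki67, present in cycling cells, one of 0.19 ± 0.37 (SE).

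**Figure D5:**
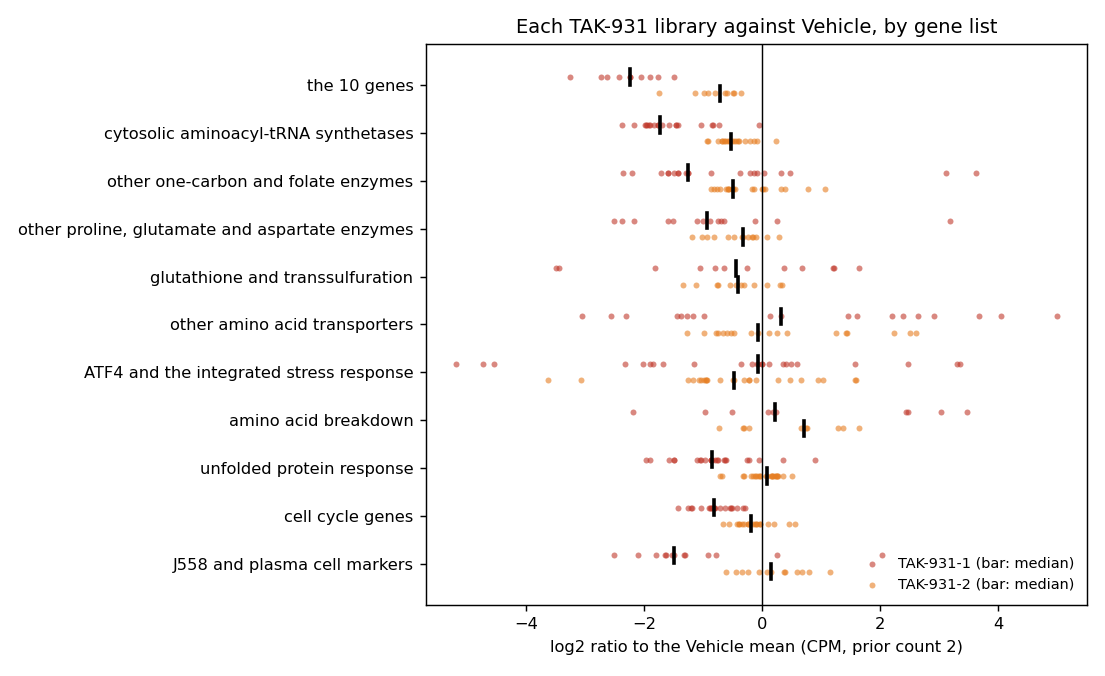
Log2 ratio of TAK-931-1 (red) and TAK-931-2 (orange) to the Vehicle mean for every tested gene of each list, with the median as a black bar. The medians of the 10 genes are -2.24 and -0.72, the synthetases follow with -1.73 and -0.53, and the J558 and plasma cell markers have -1.50 and 0.15.

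Markers of host cells moved with the difference between the groups and, more so, with the difference between the treated tumours. In both TAK-931 tumours 11 of 12 T cell, 6 of 7 NK cell, 11 of 12 macrophage, 7 of 8 fibroblast and 3 of 7 endothelial markers were higher than in both Vehicle tumours (all genes: 30%). Summed T cell markers were 107 to 109 CPM with vehicle, 1948 and 198 CPM with TAK-931, and summed fibroblast markers 1884 to 2141 CPM with vehicle against 14810 and 5106 CPM with TAK-931. Summed NK cell markers were 19.8 to 42.8 CPM with vehicle against 555.5 and 87.6 CPM with TAK-931, and those of 5 tested neutrophil markers 7.59 to 9.71 CPM with vehicle against 142 and 19.1 CPM with TAK-931. Csf3r made up most of the neutrophil sum in TAK-931-2 (15.1 CPM), where S100a8 had a count of 0 and S100a9 a count of 2, below the 4 and 22 and the 16 and 18 counts with vehicle. Summed skeletal muscle markers (84.9 to 89.5 CPM with vehicle against 679 and 12.1 CPM with TAK-931) and the sums of 3 tested adipocyte markers (63.6 to 81.0 CPM with vehicle against 679 and 50 CPM with TAK-931) and of 7 endothelial markers (228 to 248 CPM with vehicle against 824 and 238 CPM with TAK-931) were high in TAK-931-1 alone. No marker of these lists was at 0 in every library. The 13 J558 and plasma cell markers summed to 14480 and 14740 CPM with vehicle against 6035 and 17320 CPM with TAK-931. Of the 13, 5 were lower and 2 higher in both treated tumours (all genes: 32.7% and 30%). The higher ones were Slamf7 (123.5 and 117.8 CPM with vehicle, 143.8 and 192 CPM with TAK-931) and Cd38 (36.65 and 40.94 CPM with vehicle, 158.7 and 67.39 CPM with TAK-931). Cd38 was highest in TAK-931-1, as the host markers were. In TAK-931-2 the sum of the 10 genes was 60.9% of the Vehicle mean, and the sum of the 13 markers was above both Vehicle tumours. Without Jchain, the other 12 markers summed to 9404 and 9087 CPM with vehicle against 2899 and 9193 CPM with TAK-931, so that TAK-931-2 lay between the Vehicle tumours. With TAK-931-1 left out, the marker medians (log2 fold change) of the T cell (2.07), NK cell (2.48), macrophage (1.53), neutrophil (0.79) and fibroblast (1.10) lists were above 0, and those of the endothelial (-0.24), adipocyte (-0.94) and skeletal muscle (-5.28) lists below. For both TAK-931-1 and TAK-931-2, the part of the host cells in the low values of the 10 genes was not tested.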

How the data were processed

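RNA of 4 J558 allografts was analysed (2 Vehicle, 2 TAK-931). The authors deposited 1 table of read counts per gene and library, with a gene's total exon length in bases as the other numeric column. The submitters' processing notes name STAR 2.6.1c, featureCounts and mm10; the strand setting is not given in the sources used here. Of the counts from 1 to 20, only 17.9% to 23.9% were odd, so both mates of a pair appear to be counted and counting error is larger than the counts imply. A count of 0 allows 3 counts, or 0.158 to 0.180 CPM, for counting error only and if each count were a separate fragment. Where both mates are counted, it allows more.

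Low genes were removed by filterByExpr (edgeR 4.0.16, R 4.3.3, minimum count 10), libraries were scaled by TMM, and TAK-931 was compared with Vehicle by the robust quasi-likelihood test, two-sided, with Benjamini-Hochberg adjustment over all 13669 genes. The SE is the size of the log2 fold change divided by the square root of F. Log2 ratios of single libraries used a prior count of 2. The labels number the libraries as separate samples; the counts of the Vehicle pair differed by more than counting noise (chi-square per degree of freedom 8.22), which speaks only to 1 library deposited under both numbers, not to separate animals. Alternatives were DESeq2 1.42.0, limma-voom (limma 3.58.1), other scalings and filters, halved counts, a replicate block and each library left out. Scaling by Trap1a or Jchain alone was added after the data were examined. Tests were tried on simulated data. Coordinates are mm10, and promoter windows are RefSeq's (GRCm38.p6).

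The 10 genes, taken as genes under ATF4, and the lists were chosen with earlier results of these data known. Besides the 10, a fixed set of neighbours in the pathway and, in each list, the gene with the lowest unadjusted p in each direction were named.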

Additional observations from a re-analysis of the deposited data

How the results depend on the processing

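The log2 fold changes of all 10 genes stayed below 0 in all 16 alternatives. With all 4 libraries, the main test called 0 of the 10 genes and DESeq2 called 2. Leaving out 1 library at a time moved the median log2 fold change of the 10 genes between -2.27 (without TAK-931-2) and -0.72 (without TAK-931-1). The size of the difference therefore rests on which treated tumour is used. With 1 library left in a group, that library is assumed to vary like the others. Over all genes tested, the difference within the Vehicle pair and that within the TAK-931 pair were uncorrelated (0.004). With only these differences, a pairing by number can be neither shown nor excluded. With a replicate block, the median was -1.45 and 0 of the 10 genes were called. That block gave Trib3 and Chac1 edgeR adjusted p of 0.0333 and 0.0411, against 0.275 for both without it. The smallest count of the 10 genes in any library was 96. The treated libraries differed far more from each other (chi-square per degree of freedom 276) than the Vehicle libraries did (8.22), and how much this bears on the missing calls was not tested.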
